A study of Mus musculus with 9 samples.

Results

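The p53 target genes Cdkn1a, Mdm2, Ccng1, Phlda3, Sesn1, Bax, Bbc3, Trp53inp1, Zmat3 and Eda2r were followed in RNA bound to the RNA sensor RIG-I in B16F10 cells, a mouse melanoma line. These 10 genes were taken by name from the 22396 genes of the deposited counts, and all 10 were among the 12744 genes that passed the filter on low counts and were tested. The study asked what RIG-I binds when OSGEP is depleted, the catalytic subunit of the KEOPS complex that modifies tRNAs decoding codons that start with A. All cells stably expressed FLAG-tagged RIG-I from a lentiviral construct together with an shRNA, either a control (shCtr, genotype labelled WT) or 1 of 2 against OSGEP (shOSGEP#1 and shOSGEP#2, genotype labelled as an OSGEP knockdown), and were selected with puromycin. RNA recovered with anti-FLAG beads was depleted of ribosomal RNA and sequenced from 3 replicates per group, 9 libraries in all, with replicates described as independent experiments. No RNA from whole lysates was analysed here, so a change in the share of an mRNA bound to RIG-I and a change in its amount in the cells cannot be told apart, nor can fewer cells with an mRNA and less of it per cell.

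p53 is a transcription factor that accumulates after DNA damage and other stresses and binds DNA as a tetramer. Its targets halt the cell cycle, start apoptosis, adjust metabolism and repair, and, through MDM2, bring p53 itself back down. In melanoma the gene for p53 is seldom mutated, and its activity is often limited by other means.

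The shCtr libraries, in the order of replicates 1, 2 and 3, held 40333037, 47750758 and 41805753 counts in total. Those of shOSGEP#1 held 34551436, 50224299 and 30697653, and those of shOSGEP#2 held 25460689, 568995 and 14914731. Replicate 2 of shOSGEP#2 had counts on 4196 genes, against 11733 to 13958 in the other 8 libraries. It is therefore given apart from its group, and fold changes and tests use the other 8 libraries unless stated. Levels are given as CPM, counts scaled by the total of the library. A floor of 3 counts corresponds to 5.27 CPM in that shallow library and to 0.0597 to 0.201 CPM in the others, and floors and intervals cover counting error only.

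Osgep (ENSMUSG00000006289), at which both shRNAs are directed, was measured at 19.1, 19.9 and 15.5 CPM in shCtr replicates 1, 2 and 3. It was at 3.76, 1.15 and 1.53 CPM in shOSGEP#1 and at 0.0786 and 2.88 CPM in shOSGEP#2 replicates 1 and 3. Each of these 5 knockdown libraries lay below every shCtr library, and shOSGEP#2 replicate 2 had no Osgep count. The log2 fold change against shCtr was −3.10 (SE 0.73, adjusted p = 0.0128 by the quasi-likelihood test of edgeR, Benjamini-Hochberg adjusted over all genes tested) in shOSGEP#1. It was −3.84 (SE 0.93, edgeR adjusted p = 0.0150) in shOSGEP#2, so neither passed the threshold of an adjusted p under 0.01. The difference between the shRNAs was −0.74 (SE 0.87, edgeR adjusted p = 0.568). Leaving out either remaining shOSGEP#2 library made the call for shOSGEP#1 pass (−3.11 each), and leaving out replicate 3 made that for shOSGEP#2 pass, at −7.86 with only the 2 counts of replicate 1 in the group. With no filter on low counts both passed (−3.10 and −3.84). With only the groups compared in the fit shOSGEP#1 alone passed (−3.11), and DESeq2 called shOSGEP#2 alone, with 8 libraries (−3.72) and with all 9 (−4.07).

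The label of the cells was checked against 7 melanocyte lineage markers and 12 markers of leukocytes, endothelium, epithelium and fibroblasts. The melanocyte markers summed to 6336, 6039 and 8473 CPM in shCtr, to 6288, 7565 and 6840 CPM in shOSGEP#1 and to 2617 and 3374 CPM in shOSGEP#2, with Tyrp1 the most abundant. The markers of other cell types summed to 2.48, 3.90 and 2.85 CPM in shCtr, to 2.58, 1.23 and 4.56 CPM in shOSGEP#1 and to 5.30 and 17.6 CPM in shOSGEP#2, with the fibroblast gene Col1a1 the most abundant and Itgam and Krt5 at 0 in every library. Col1a1 alone held 68.5 CPM in shOSGEP#2 replicate 2.

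**Figure D1:**
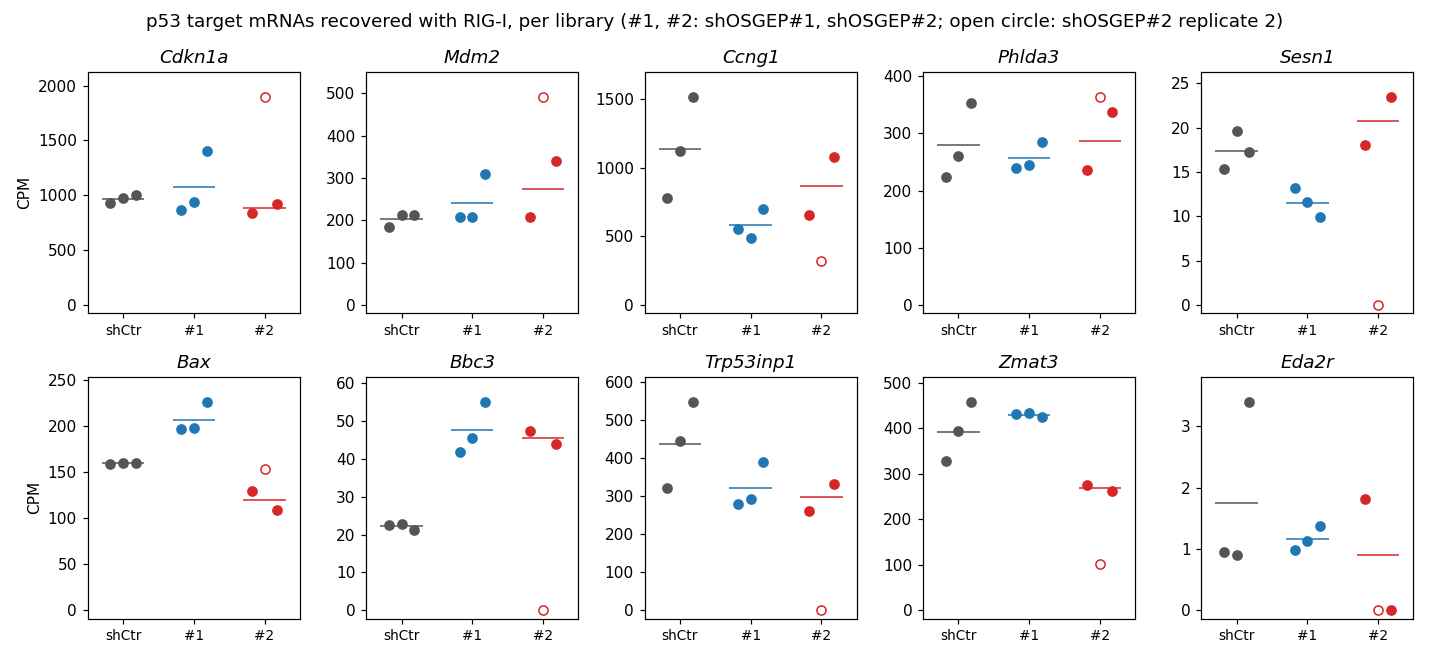
Level of each p53 target gene in each library, in CPM on a linear axis, with shCtr, shOSGEP#1 and shOSGEP#2 apart and shOSGEP#2 replicate 2 as a separate symbol. The shCtr libraries of Bbc3 lie at 21.2 to 22.7 CPM, below the 41.9 to 55.0 CPM of the shOSGEP#1 and the 43.8 to 47.4 CPM of the other shOSGEP#2 libraries.

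Of the 10 p53 target genes, Bbc3 was the only one to pass the test in a comparison with shCtr in these 8 libraries, and it was higher with both shRNAs. In shOSGEP#1 against shCtr, 1 of 10 rose and 0 fell by edgeR's test, beside 5.00% of all 12744 genes tested that rose and 4.67% that fell. The unadjusted p was under 0.05 for 4 of the 10 and for 34.9% of all genes tested, and DESeq2 called 1 up and 1 down, beside 8.32% and 7.11% of its 15691 genes. In shOSGEP#2 against shCtr, 1 of 10 rose and 0 fell by edgeR's test, beside 5.66% and 3.89% of all genes tested, with 4 of 10 and 35.6% of all genes at an unadjusted p under 0.05, and 1 up and 1 down by DESeq2, beside 8.53% and 6.74%. Both comparisons use the same shCtr libraries. In shOSGEP#2 against shOSGEP#1, 0 of 10 rose and 1 fell, namely Bax, beside 6.23% and 4.56% of all genes tested, with 3 of 10 and 37.1% of all genes at an unadjusted p under 0.05, and 0 up and 2 down by DESeq2, beside 8.55% and 7.99%. By edgeR's test 1 gene or none of the 10 was thus called in each direction, near the shares of all genes tested. DESeq2 differed in calling 2 down between the shRNAs.

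The median log2 fold change of the 10 p53 target genes was −0.01 in shOSGEP#1 and −0.36 in shOSGEP#2 against shCtr, and −0.17 between the shRNAs. Over all genes tested the medians were 0.00, −0.06 and −0.04. On leaving out 1 library the medians of the 10 ran from −0.16 (without shOSGEP#1 replicate 3) to 0.20 (without shCtr replicate 3) in shOSGEP#1, where the sign also changed without shOSGEP#1 replicate 1 or 2 (0.02 and 0.003). In shOSGEP#2 the median was −0.13 without shCtr replicate 3 and −0.21 without shOSGEP#2 replicate 1, and between the shRNAs it was −0.02 without shOSGEP#1 replicate 3. Positive fold changes were found for 5, 3 and 4 of the 10 in these comparisons, against 50.1%, 46.6% and 47.5% of all genes tested. The 10 genes therefore did not move together in 1 direction. With all 9 libraries in the fit, edgeR called 0 of 12337 genes tested in each comparison (0.00%), with 620, 1240 and 1325 at an unadjusted p under 0.05 and 122, 349 and 413 called by DESeq2. Each edgeR call below, of a member or of another gene, was lost in that fit.

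Groups that did not overlap were more frequent than calls. In shOSGEP#1, Bax and Bbc3 lay above all shCtr libraries and Ccng1 and Sesn1 below them, where 23.1% of all genes tested lay above and 22.2% below. In shOSGEP#2, Bbc3 lay above and Cdkn1a, Bax and Zmat3 lay below all shCtr libraries, where 28.7% of all genes lay above and 23.6% below. Between the shRNAs, Sesn1 was higher and Bax and Zmat3 were lower in every shOSGEP#2 library, where 27.1% of all genes were higher and 22.5% lower.

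Among the cell-cycle genes, Cdkn1a (ENSMUSG00000023067) encodes p21, an inhibitor of cyclin-dependent kinases and the best known target of p53. It was measured at 934, 973 and 1002 CPM in shCtr, at 868, 943 and 1405 CPM in shOSGEP#1 and at 842 and 921 CPM in shOSGEP#2. The shCtr libraries were close together, shOSGEP#1 replicate 3 stood above all other libraries of the 8, and both shOSGEP#2 libraries lay just below shCtr. Means were 969.9 ± 34.0 (SD, n = 3), 1072 ± 291 (n = 3) and 882 ± 56.1 CPM (n = 2). The log2 fold change was 0.13 (SE 0.18, edgeR adjusted p = 0.657) in shOSGEP#1, and it became 0.27, 0.22 and −0.11 without shOSGEP#1 replicate 1, 2 and 3. In shOSGEP#2 it was −0.23 (SE 0.20, edgeR adjusted p = 0.442), a difference smaller than the test could tell from the spread of the libraries. Between the shRNAs it was −0.37 (SE 0.21, edgeR adjusted p = 0.222), and −0.12 without shOSGEP#1 replicate 3.

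Ccng1 (ENSMUSG00000020326), which encodes cyclin G1, a p53 target that recruits a phosphatase to MDM2, was measured at 777, 1119 and 1517 CPM in shCtr. It was at 551, 489.8 and 701 CPM in shOSGEP#1 and at 655 and 1079 CPM in shOSGEP#2. All shOSGEP#1 libraries lay below shCtr, while shOSGEP#2 overlapped shCtr, and the shCtr libraries spanned a 1.95-fold range, the widest of the members except Eda2r. Means were 1138 ± 370.4 (SD, n = 3), 581 ± 109 (n = 3) and 867 ± 299 CPM (n = 2). The log2 fold change of −0.98 in shOSGEP#1 (SE 0.26, edgeR adjusted p = 0.0200) missed the threshold. It passed with no filter on low counts (−0.99, edgeR adjusted p = 0.00317) and with the replicate number as a block (−0.95, edgeR adjusted p = 0.00301). It also passed in DESeq2 (−0.97, adjusted p = 0.00114), within a range of 0.00114 to 1.00 over 17 alternatives. For shOSGEP#2 it was −0.50 (SE 0.29, edgeR adjusted p = 0.245), and −0.23 without shCtr replicate 3, −0.21 without shOSGEP#2 replicate 1 and −0.86 without replicate 3. The difference between the shRNAs was 0.49 (SE 0.28, edgeR adjusted p = 0.233), and 0.78 and 0.13 without these shOSGEP#2 libraries.

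Mdm2 (ENSMUSG00000020184) encodes the ubiquitin ligase that targets p53 for degradation and closes the feedback loop. Its level was 184, 212 and 213 CPM in shCtr, 208, 209 and 309 CPM in shOSGEP#1 and 209 and 341 CPM in shOSGEP#2. Replicate 3 of each knockdown group stood above the rest, and the other knockdown libraries fell among the shCtr libraries, so the groups overlapped. Means were 203 ± 16.6 (SD, n = 3), 242 ± 58.2 (n = 3) and 275 ± 93.8 CPM (n = 2). In log2 units the fold change was 0.24 (SE 0.21, edgeR adjusted p = 0.449) in shOSGEP#1 and 0.34 (SE 0.23, edgeR adjusted p = 0.321) in shOSGEP#2. The former was 0.02 without shOSGEP#1 replicate 3, and the latter −0.02 without shOSGEP#2 replicate 3 and 0.62 without replicate 1. Between the shRNAs the difference was 0.10 (SE 0.23, edgeR adjusted p = 0.794), and −0.26 without shOSGEP#2 replicate 3, 0.38 without shOSGEP#2 replicate 1 and 0.31 without shOSGEP#1 replicate 3.

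Among the genes of apoptosis, Bbc3 (ENSMUSG00000002083) encodes PUMA, a BH3-only protein that frees BAX and BAK from their inhibitors. It was measured at 22.5, 22.7 and 21.2 CPM in shCtr, at 41.9, 45.7 and 55.0 CPM in shOSGEP#1 and at 47.4 and 43.8 CPM in shOSGEP#2. Every knockdown library of these 5 lay well above the narrow range of shCtr, and the knockdown groups overlapped each other. Means were 22.1 ± 0.805 (SD, n = 3), 47.5 ± 6.74 (n = 3) and 45.6 ± 2.54 CPM (n = 2).

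Bbc3 rose 2.13-fold in shOSGEP#1, a log2 fold change of 1.09 (SE 0.16, edgeR adjusted p = 0.00124), with 3 of 3 libraries above shCtr. It rose 1.93-fold in shOSGEP#2, a log2 fold change of 0.95 (SE 0.17, edgeR adjusted p = 0.00348). The difference between the shRNAs was −0.14 (SE 0.18, edgeR adjusted p = 0.603), and −0.22 and −0.02 without shOSGEP#1 replicate 1 and 3, and −0.23 and −0.05 without shOSGEP#2 replicate 1 and 3. The call in shOSGEP#1 was lost without shCtr replicate 2 (1.11, edgeR adjusted p = 0.0101) and with all 9 libraries (1.08 and an adjusted p of 1.00 in edgeR, 1.11 and 1.00 in DESeq2), within a range of 1.84e-08 to 1.00 over 17 alternatives.

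The call of Bbc3 in shOSGEP#2 was less stable than its size. Without shCtr replicate 1, 2 or 3 the log2 fold change was 0.97, 0.97 and 0.93, with adjusted p-values of 0.0166, 0.0181 and 0.0136 in edgeR. Without shOSGEP#2 replicate 1 it was 0.86 (edgeR adjusted p = 0.0176) and without replicate 3 it was 1.03 (edgeR adjusted p = 0.0109), so each of these 5 libraries decided the call. With all 9 libraries, in which replicate 2 had no Bbc3 count, it was 0.41 in edgeR (adjusted p = 0.898) and 0.36 in DESeq2 (adjusted p = 0.885), within a range of 1.77e-05 to 0.898 over 17 alternatives.

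Bax (ENSMUSG00000003873) encodes the pore-forming protein that permeabilises the outer mitochondrial membrane. Its level was 159, 160.1 and 159.6 CPM in shCtr, 197, 198 and 226 CPM in shOSGEP#1 and 129 and 109 CPM in shOSGEP#2. The 3 groups did not overlap, with shOSGEP#1 above and shOSGEP#2 below a shCtr group whose highest library was 1.01 times its lowest. Means were 159 ± 0.668 (SD, n = 3), 207 ± 16.4 (n = 3) and 119 ± 14.6 CPM (n = 2). Against shCtr the log2 fold change was 0.36 (SE 0.14, edgeR adjusted p = 0.0820) in shOSGEP#1 and −0.51 (SE 0.16, edgeR adjusted p = 0.0377) in shOSGEP#2, neither past the threshold.

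The difference in Bax between the shRNAs did pass, with a log2 fold change of −0.88 in shOSGEP#2 against shOSGEP#1 (SE 0.16, edgeR adjusted p = 0.00274), which is 0.545 times the level. Every shOSGEP#2 library was below every shOSGEP#1 library. The call was lost without shOSGEP#2 replicate 3 (−0.73, edgeR adjusted p = 0.0290), with only these 2 groups in the fit (−0.86, edgeR adjusted p = 0.0163) and with all 9 libraries in edgeR (−0.94, adjusted p = 0.261), within a range of 2.11e-06 to 0.261 over 17 alternatives. DESeq2 with all 9 libraries kept it, at −0.96.

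Phlda3 (ENSMUSG00000041801), whose product competes with AKT for membrane lipids and so weakens survival signalling, was measured at 224, 259.7 and 353 CPM in shCtr. It was at 240.0, 245 and 284 CPM in shOSGEP#1 and at 236 and 338 CPM in shOSGEP#2. All knockdown libraries of these 5 fell within the range of shCtr. Fold changes on the log2 scale were −0.14 (SE 0.20, edgeR adjusted p = 0.671) in shOSGEP#1 and −0.06 (SE 0.22, edgeR adjusted p = 0.868) in shOSGEP#2, and without shCtr replicate 3 these became 0.08 and 0.15. Without shCtr replicate 1 they were −0.28 and −0.19, and leaving out shOSGEP#2 replicate 1 or 3 gave 0.15 and −0.31 in shOSGEP#2. Between the shRNAs it was 0.08 (SE 0.22, edgeR adjusted p = 0.828), and 0.28 and −0.17 without these 2 libraries.

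Eda2r (ENSMUSG00000034457), a receptor of the tumour necrosis factor family that binds ectodysplasin A2, was scarce, with 38, 43 and 142 counts in shCtr. The shOSGEP#1 libraries held 34, 57 and 42 of its counts and the shOSGEP#2 libraries 46 and 0. In CPM this was 0.942, 0.901 and 3.40 in shCtr, 0.984, 1.13 and 1.37 in shOSGEP#1 and 1.81 and 0 in shOSGEP#2, where the floor of 3 counts for the 0 is 0.201 CPM. One library, shCtr replicate 3, was high and another, shOSGEP#2 replicate 3, was empty, so the groups overlapped. The log2 fold change was −0.60 (SE 1.01, edgeR adjusted p = 0.720) in shOSGEP#1 and 0.33 without shCtr replicate 3. In shOSGEP#2 it was −0.97 (SE 1.17, edgeR adjusted p = 0.585), and −9.04 without replicate 1, −0.02 without replicate 3 and −0.05 without shCtr replicate 3. Between the shRNAs it was −0.37 (SE 1.16, edgeR adjusted p = 0.843), and −8.44 and 0.59 without shOSGEP#2 replicate 1 and 3, so no difference was detectable beyond the spread between libraries, which was 3.77-fold within shCtr alone.

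Among the genes of stress and metabolism, Sesn1 (ENSMUSG00000038332) encodes sestrin 1, which restrains mTORC1 signalling under stress. It was measured at 15.3, 19.6 and 17.3 CPM in shCtr, at 13.2, 11.6 and 9.87 CPM in shOSGEP#1 and at 18.1 and 23.5 CPM in shOSGEP#2. All shOSGEP#1 libraries were below all others of the 8, while shOSGEP#2 overlapped shCtr. Means were 17.4 ± 2.14 (SD, n = 3), 11.5 ± 1.66 (n = 3) and 20.8 ± 3.82 CPM (n = 2). The log2 fold change was −0.60 (SE 0.20, edgeR adjusted p = 0.0553) in shOSGEP#1 and 0.16 (SE 0.23, edgeR adjusted p = 0.657) in shOSGEP#2, the latter 0.30 and −0.01 without shOSGEP#2 replicate 1 and 3 and 0.08 and 0.25 without shCtr replicate 1 and 2. The difference between the shRNAs, 0.76 (SE 0.23, edgeR adjusted p = 0.0332), did not pass either.

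Trp53inp1 (ENSMUSG00000028211), a stress-induced nuclear protein that also acts in autophagy, was measured at 321, 445 and 548 CPM in shCtr. It was at 280.2, 293 and 391 CPM in shOSGEP#1 and at 262 and 332 CPM in shOSGEP#2. Most knockdown libraries were below shCtr, but shOSGEP#1 replicate 3 and shOSGEP#2 replicate 3 overlapped it. Means were 438 ± 114 (SD, n = 3), 321 ± 60.6 (n = 3) and 297 ± 49.5 CPM (n = 2). Against shCtr the log2 fold change was −0.46 (SE 0.21, edgeR adjusted p = 0.146) in shOSGEP#1, −0.66 (SE 0.24, edgeR adjusted p = 0.0748) in shOSGEP#2 and −0.20 (SE 0.24, edgeR adjusted p = 0.577) between the shRNAs. Without shCtr replicate 3 the first was −0.26. The last was −0.03 without shOSGEP#1 replicate 3, −0.07 without shOSGEP#2 replicate 1 and −0.34 without shOSGEP#2 replicate 3.

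Zmat3 (ENSMUSG00000027663) encodes a zinc-finger RNA-binding protein, also called WIG1 or PAG608, that acts on splicing and on mRNA stability. Its level was 327, 393 and 457 CPM in shCtr, 431, 432 and 425 CPM in shOSGEP#1 and 274 and 261 CPM in shOSGEP#2. The shOSGEP#1 libraries were nearly equal and lay within the shCtr range, whereas both shOSGEP#2 libraries lay below all others of the 8. Means were 392 ± 65.1 (SD, n = 3), 429.6 ± 3.90 (n = 3) and 268 ± 9.21 CPM (n = 2). Zmat3 had a log2 fold change of 0.12 (SE 0.15, edgeR adjusted p = 0.634) in shOSGEP#1, which was −0.004 without shCtr replicate 1 and 0.25 without shCtr replicate 3.

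For Zmat3 in shOSGEP#2 the log2 fold change of −0.65 (SE 0.17, edgeR adjusted p = 0.0236) missed the threshold, and DESeq2 called it (−0.63, adjusted p = 0.00293, with a range of 0.00293 to 0.521 over 17 alternatives). Between the shRNAs Zmat3 was at 0.589 times the level, a log2 fold change of −0.76 (SE 0.17, edgeR adjusted p = 0.0101). That difference passed with no filter (−0.76, edgeR adjusted p = 0.00636), when each library had to hold 10 counts or more (edgeR adjusted p = 0.00874), without shCtr replicate 3 (−0.76, edgeR adjusted p = 0.00815) and in DESeq2 (adjusted p = 0.000213), within a range of 0.000213 to 0.437.

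**Figure D2:**
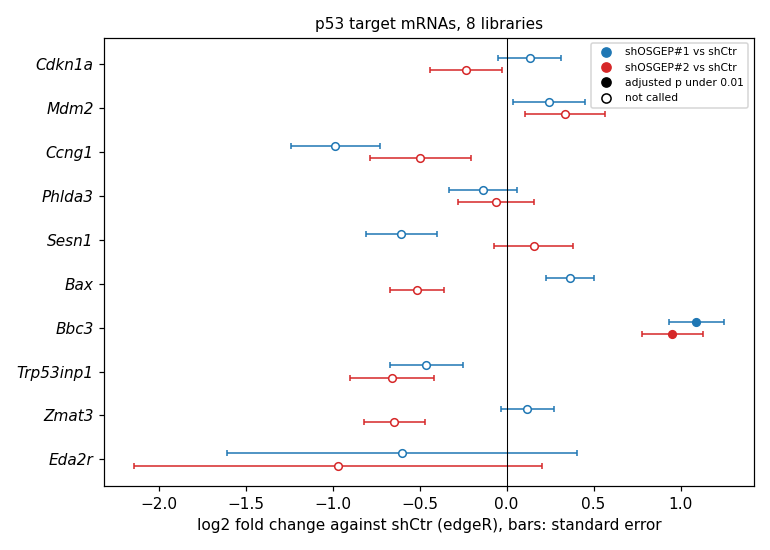
Log2 fold change of each p53 target gene in shOSGEP#1 and in shOSGEP#2 against shCtr, from edgeR with 8 libraries. Bars are 1 standard error, and filled points mark an adjusted p under 0.01. Bbc3 is filled at 1.09 and 0.95, and no other member is filled.

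The shallow library, shOSGEP#2 replicate 2, gave another profile of the members. Cdkn1a had 1080 counts there, or 1898 CPM (95% Wilson interval 1788 to 2015), where the mean of the other shOSGEP#2 libraries would give 502 counts. Mdm2 had 280 counts, or 492 CPM (interval 438 to 553), where 157 would be given. Both levels lay above every other library.

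Phlda3 had 207 counts in that library (364 CPM) where 163 would be given, and Bax had 87 counts, or 153 CPM (interval 124 to 189), where 67.7 would be given. Ccng1 had 182 counts (319.9 CPM) where 493 would be given, and Zmat3 had 58 counts (102 CPM) where 152 would be given, both below every other library. Trp53inp1 had no count where 169 would be given, Bbc3 none where 26.0 would be given and Sesn1 none where 11.8 would be given. Eda2r also had none, where 0.514 would be given, so its absence was not informative at this depth. The zeros of Trp53inp1, Bbc3 and Sesn1 have a floor of 3 counts, 5.27 CPM, and an upper Wilson bound of 6.75 CPM. Both lie below the other shOSGEP#2 libraries, at 262 and 332 CPM for Trp53inp1, 47.4 and 43.8 CPM for Bbc3 and 18.1 and 23.5 CPM for Sesn1. They also lie below every shCtr library for Trp53inp1, Bbc3 and Sesn1. Missing counts were frequent in this library, which had counts on 4196 genes. Sesn2, at a mean of 211 CPM in the other shOSGEP#2 libraries, also had none there. For Bbc3 this library thus did not show the rise called from the other shOSGEP#2 libraries. Whether its zero reflects the level of Bbc3 was not tested.

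Levels of different genes were compared per kilobase of exon length. In shCtr the order was Ccng1 at 324 ± 105 CPM per kb (SD, n = 3), Cdkn1a at 273 ± 9.56, Phlda3 at 179 ± 42.8, Bax at 101 ± 0.424 and Trp53inp1 at 67.6 ± 17.5. It went on with Mdm2 at 39.9 ± 3.27, Zmat3 at 34.3 ± 5.69, Bbc3 at 10.4 ± 0.379, Sesn1 at 4.37 ± 0.538 and Eda2r at 0.296 ± 0.243 CPM per kb. Ccng1 and Cdkn1a overlapped, as did Mdm2 and Zmat3, and the other neighbours in this order did not. Averaged over the 8 libraries, Cdkn1a (278 CPM per kb) stood at the 99.2 percentile of genes tested, Bbc3 (17.7 CPM per kb) at the 75.1 percentile and Eda2r (0.224 CPM per kb) at the 9.62 percentile.

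Within groups the members varied in particular libraries. In shCtr, replicate 3 was the highest library for 7 of the 10, replicate 2 for 3 and replicate 1 for 0, whereas these were the highest library for 37.4%, 28.4% and 34.2% of all genes tested. In shOSGEP#1, replicate 3 was the highest for 8 of the 10, against 39.1% of all genes tested. The summed level of the 10 was 2965, 3606 and 4292 CPM in shCtr, 2831, 2868 and 3808 CPM in shOSGEP#1 and 2675 and 3449 CPM in shOSGEP#2. The widest range in shOSGEP#1 was that of Cdkn1a, 1.62-fold, followed by Mdm2 at 1.48-fold.

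Other values set shOSGEP#1 replicate 3 apart as well. Its share of mitochondrially encoded RNA was 2.96%, against 0.347% and 0.445% in the other shOSGEP#1 libraries, 0.147% to 0.303% in shCtr and 0.211% and 0.268% in shOSGEP#2. The summed level of 15 cell cycle genes repressed through p21 was 591 CPM there, against 1269 and 1206 CPM in the other shOSGEP#1 libraries. Their part in the high Cdkn1a and Mdm2 of that library was not tested.

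The 5 genes whose pattern over the 8 libraries was nearest to that of Cdkn1a, by Euclidean distance of centred log2 CPM, were Dhx36 (0.163), Etfdh (0.258), Med17 (0.263), Trim33 (0.275) and Cul4b (0.277). Each of them had its highest level in shOSGEP#1 replicate 3, as Cdkn1a did, for instance Dhx36 at 159 CPM there and 97.3 to 121 CPM elsewhere. No other member was among them. Phlda3 was the nearest member, at rank 1497 (distance 0.739), followed by Mdm2 at rank 1537, Bax at 1660, Zmat3 at 2031 and Trp53inp1 at 2503. Bbc3, Sesn1 and Ccng1 came at ranks 7537, 7605 and 7716, and Eda2r at 12134.

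Codons that start with A, those decoded by the tRNAs that OSGEP helps to modify, made up 11.4% of the 193 codons of Bbc3 and 19.5% of the 159 codons of Cdkn1a. Bbc3 stood at the 0.222 percentile and Cdkn1a at the 8.20 percentile of genes tested. In the other members this share ran from 23.8% in Zmat3, 23.9% in Eda2r, 25.6% in Phlda3, 26.6% in Bax, 26.8% in Trp53inp1, 27.8% in Sesn1 and 29.7% in Mdm2 to 30.3% in Ccng1. The median of the 10 was 26.1%, against 26.9% over 12639 genes tested with a coding sequence (quartiles 23.5% and 29.8%). Bbc3, the member that rose with both shRNAs, was thus the member with the lowest share, and its relation to the change was not tested.

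Promoter sequences of the members, which include the genes that rose or differed between the shRNAs, were searched for a pair of p53 half-sites. RefSeq windows from 250 bases before to 50 bases after the start of transcription (mouse build GRCm38.p6) were found for 8 of the 10 members, 12 windows in all, and Trp53inp1 and Zmat3 had no entry. The p53 half-site is a motif of 10 letters that reads alike on both strands. A pair was taken as 2 half-sites with intact cores, at most 13 bases apart and with at most 3 mismatches in all, limits chosen after the matches were seen. Of 32851 windows of 27025 genes, 6.72% held such a pair, 2.12% one with at most 2 mismatches and 0.0731% one without a mismatch. Of the member windows, 4 held one, in Cdkn1a, Bax, Sesn1 and Bbc3.

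The pair of Cdkn1a with the fewest mismatches had 0 mismatches and a spacer of 12 bases, and ended 41 bases before the start of transcription (chr17:29090886-29090957, plus strand). The bases right after its second half-site make another pair with that half-site, with no spacer and 1 mismatch, and are left in lower case. That of Bax had 2 mismatches and a spacer of 1 base, 180 bases before the start (chr7:45467059-45467119, minus strand). That of Sesn1 had 2 mismatches and a spacer of 3 bases, 163 bases before the start (chr10:41887233-41887295, plus strand). That of Bbc3 had 3 mismatches and no spacer, 77 bases before the start (chr7:16309466-16309525, plus strand). The sequences are printed 5′ to 3′ on the strand of the gene with 20 bases on either side, and capitals mark the half-sites:
Cdkn1a: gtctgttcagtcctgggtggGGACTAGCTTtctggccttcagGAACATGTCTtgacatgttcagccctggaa
Bax: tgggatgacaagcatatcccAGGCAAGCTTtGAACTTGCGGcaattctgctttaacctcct
Sesn1: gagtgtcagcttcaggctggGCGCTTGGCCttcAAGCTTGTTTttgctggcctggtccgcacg
Bbc3: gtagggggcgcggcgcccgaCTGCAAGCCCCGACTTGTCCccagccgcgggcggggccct

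A match is a description of the letters. Mdm2 and Ccng1 each had 1 half-site without mismatch and no pair in their windows, and Phlda3 and Eda2r had neither, where 8.36% of all windows hold at least 1 such half-site. The members with a pair included Bbc3, called against shCtr, Bax, called between the shRNAs, and Cdkn1a and Sesn1, which passed in no comparison.

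Other genes activated by p53 were taken as a list of 30, of which 28 were tested and Pmaip1 was at 0 in every library. By edgeR's test 0 rose and 5 fell in shOSGEP#1, 5 rose and 1 fell in shOSGEP#2, and 7 were higher and 3 lower in shOSGEP#2 than in shOSGEP#1, where 5.00% and 4.67%, 5.66% and 3.89%, and 6.23% and 4.56% of all genes tested rose and fell. Their median log2 fold changes were −0.00, −0.08 and 0.36, beside 0.00, −0.06 and −0.04 over all genes tested. The unadjusted p was under 0.05 for 13, 14 and 16 of the 28, against 34.9%, 35.6% and 37.1% of all genes tested, and DESeq2 called 1 up and 7 down, 5 up and 5 down, and 7 up and 4 down, where it called 8.32% and 7.11%, 8.53% and 6.74%, and 8.55% and 7.99% of its 15691 genes.

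Gadd45a, a stress sensor that slows the cell cycle, was at 36.0, 32.4 and 22.6 CPM in shCtr, 14.3, 11.2 and 17.3 CPM in shOSGEP#1 and 101 and 85.8 CPM in shOSGEP#2. The 3 groups did not overlap, and Gadd45a fell in shOSGEP#1 (−1.10, SE 0.22, edgeR adjusted p = 0.00547) and rose in shOSGEP#2 (1.53, SE 0.24, edgeR adjusted p = 0.00138). The fall was not called without shCtr replicate 1 (−0.97) or 2 (−1.05) or without shOSGEP#1 replicate 1 (−1.10) or 2 (−0.95). Gdf15, a secreted stress cytokine, rose in shOSGEP#2 (1.65, SE 0.21, edgeR adjusted p = 0.0005) and had a log2 fold change of 0.68 (SE 0.19, edgeR adjusted p = 0.0295) in shOSGEP#1. Rrm2b, a subunit of ribonucleotide reductase, rose in shOSGEP#2 from 37.1 to 49.9 CPM in shCtr to 119 and 136 CPM (1.45, SE 0.17, edgeR adjusted p = 0.000302). Neither Gadd45a nor Rrm2b had a count in shOSGEP#2 replicate 2, where the upper Wilson bound of 6.75 CPM lies below their shCtr libraries. With all 9 libraries in edgeR their log2 fold changes in shOSGEP#2 were 0.98 and 0.90. Plk3, a stress-activated kinase, fell in shOSGEP#1 (−1.52, SE 0.34, edgeR adjusted p = 0.00918). That call was lost without shCtr replicate 1 (−1.29) or 2 (−1.38) or shOSGEP#1 replicate 1 (−1.75), 2 (−1.41) or 3 (−1.43). It was also lost with library totals (−1.51) and with the replicate number as a block (−1.48). Of the most abundant, Apaf1, the core of the apoptosome, fell in shOSGEP#2 (−1.44, SE 0.17, edgeR adjusted p = 0.000302), and Ei24 had −0.64 (edgeR adjusted p = 0.0223) and −0.75 (edgeR adjusted p = 0.0193) with the 2 shRNAs.

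**Figure D3:**
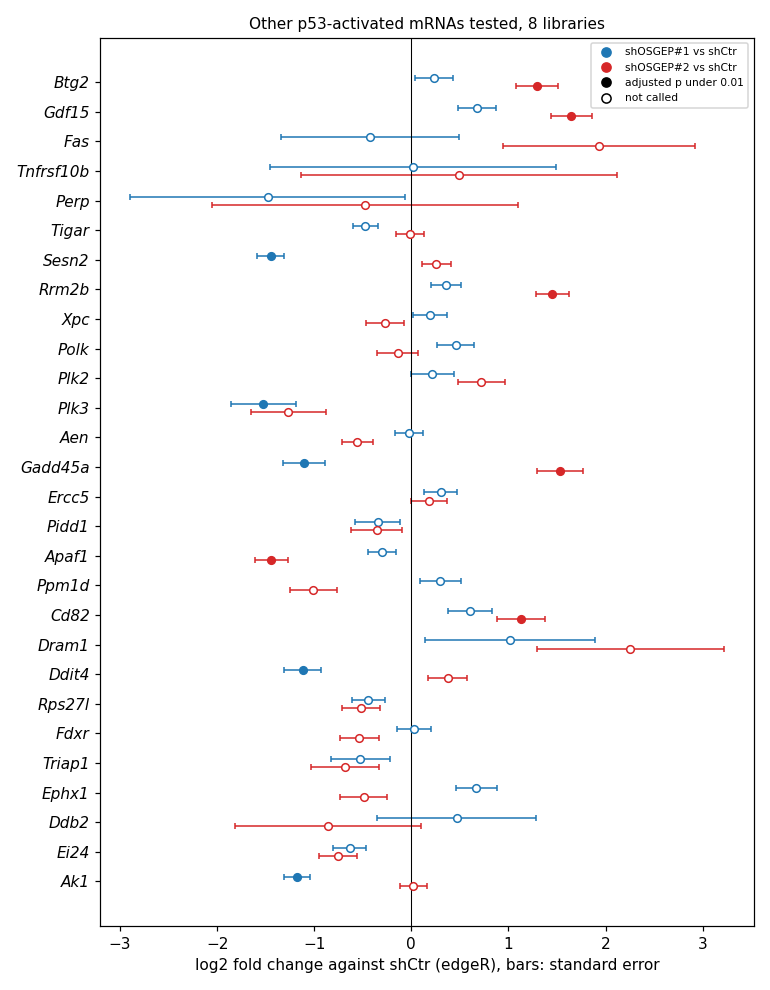
Log2 fold change of 28 other genes activated by p53 in shOSGEP#1 and in shOSGEP#2 against shCtr, from edgeR with 8 libraries, with bars of 1 standard error and filled points for an adjusted p under 0.01. Gadd45a is filled on both sides of 0, at −1.10 and 1.53, and the 2 comparisons share the shCtr libraries.

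Of 16 genes for p53 and its regulators 13 were tested, and Cdkn2a was at 0 in every library. By edgeR's test 0 rose and 2 fell in shOSGEP#1, 0 rose and 1 fell in shOSGEP#2 and 1 was higher and 0 lower between the shRNAs, where 5.00% and 4.67%, 5.66% and 3.89%, and 6.23% and 4.56% of all genes tested rose and fell. An unadjusted p under 0.05 was found for 6, 6 and 4 of the 13, against 34.9%, 35.6% and 37.1% of all genes tested. DESeq2 called 1 up and 3 down, 1 up and 2 down, and 2 up and 1 down. Of all its genes it called 8.32% and 7.11%, 8.53% and 6.74%, and 8.55% and 7.99%. Medians of the 13 were −0.03, −0.11 and 0.03. Trp53 itself, named here after its values were seen, was at 188, 179 and 182 CPM in shCtr, 231, 237 and 209 CPM in shOSGEP#1 and 165 and 111 CPM in shOSGEP#2. Like Bax, it was above shCtr in every shOSGEP#1 library and below it in both shOSGEP#2 libraries, and neither comparison passed (0.29, SE 0.17, edgeR adjusted p = 0.239, and −0.49, SE 0.19, edgeR adjusted p = 0.0873). The ubiquitin ligase Rchy1 fell in both (−0.68, edgeR adjusted p = 0.00508, and −0.99, edgeR adjusted p = 0.00145). Usp7, which deubiquitinates MDM2 and p53, fell in shOSGEP#1 (−0.65, edgeR adjusted p = 0.00595). Neither call in shOSGEP#1 survived leaving out any 1 of the 6 libraries compared (Rchy1 −0.71 to −0.66, Usp7 −0.70 to −0.57), and that of Rchy1 in shOSGEP#2 was lost without shOSGEP#2 replicate 3 (−0.97). The most abundant, Hipk2 and Ep300, had −0.12 and −0.03 in shOSGEP#1 and 0.45 and −0.11 in shOSGEP#2.

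Of 15 cell cycle genes repressed through p21, 0 were called by edgeR in each comparison. Of all genes tested, 5.00% and 4.67%, 5.66% and 3.89%, and 6.23% and 4.56% rose and fell. The unadjusted p was under 0.05 for 7, 4 and 0 of the 15 (34.9%, 35.6% and 37.1% of all genes tested). DESeq2 called 5, 1 and 0 down, where it called 7.11%, 6.74% and 7.99% of all its genes down. Medians of the 15 were −0.63, −0.54 and 0.21, and 14 and 13 of the 15 had a negative fold change against shCtr in shOSGEP#1 and shOSGEP#2. Their summed level was 1151, 1191 and 1633 CPM in shCtr, 1269, 1206 and 591 CPM in shOSGEP#1 and 1167 and 1078 CPM in shOSGEP#2. Without shOSGEP#1 replicate 3, the library with 2.96% mitochondrially encoded RNA and an alternative chosen after seeing the data, the medians were −0.25, −0.54 and −0.05, with 11 and 13 negative, and Cdc25c was called in shOSGEP#2. Without shCtr replicate 3 the medians against shCtr were −0.44 and −0.30. The most abundant, Top2a and Mki67, had −0.18 and 0.59 in shOSGEP#1 and 0.03 and 0.22 in shOSGEP#2.

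Of 14 BCL2 family genes 9 were tested and 3 were at 0 in every library. By edgeR's test 2 rose and 1 fell in shOSGEP#1, 1 rose and 0 fell in shOSGEP#2, and 1 was higher and 1 lower between the shRNAs, beside the same 5.00% and 4.67%, 5.66% and 3.89%, and 6.23% and 4.56% of all genes tested. The unadjusted p was below 0.05 for 7, 4 and 5 of the 9, against 34.9%, 35.6% and 37.1% of all genes tested. DESeq2 called 3 up and 1 down, 1 up and 2 down, and 1 up and 1 down. Beside these, it called 8.32% and 7.11%, 8.53% and 6.74%, and 8.55% and 7.99% of all its genes. The medians of the 9 were −0.21, 0.07 and −0.17, beside 0.00, −0.06 and −0.04 over all genes tested. Bcl2, whose product is held by PUMA, was at 40.4, 48.8 and 56.4 CPM in shCtr, 85.6, 85.3 and 102 CPM in shOSGEP#1 and 122 and 149 CPM in shOSGEP#2, and rose in both (0.89, SE 0.16, edgeR adjusted p = 0.00379, and 1.38, SE 0.18, edgeR adjusted p = 0.000535). Its call in shOSGEP#1 was lost without shCtr replicate 1 (0.77) or 2 (0.89) or shOSGEP#1 replicate 2 (0.93) or 3 (0.80). Bcl2l1, which encodes the survival protein BCL-XL, rose in shOSGEP#1 (0.81, SE 0.13, edgeR adjusted p = 0.00222), except without shCtr replicate 1 (0.75) or 2 (0.82) or shOSGEP#1 replicate 2 (0.74), and had −0.09 in shOSGEP#2. The BH3-only gene Bmf fell in shOSGEP#1 (−1.63, SE 0.24, edgeR adjusted p = 0.0013), except without shCtr replicate 2 (−1.62), and had 0.07 in shOSGEP#2. The pore-forming relative of Bax, Bak1, had −0.21 and −0.87 (edgeR adjusted p = 0.0239).

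Among 11 relatives of the members, 9 tested, 0 rose and 2 fell in shOSGEP#1, 0 rose and 1 fell in shOSGEP#2, and 3 were higher and 1 lower between the shRNAs by edgeR's test, beside 5.00% and 4.67%, 5.66% and 3.89%, and 6.23% and 4.56% of all genes tested. Of the 9, 7, 6 and 5 had an unadjusted p under 0.05, against 34.9%, 35.6% and 37.1% of all genes tested. DESeq2 called 0 up and 2 down, 1 up and 1 down, and 4 up and 1 down. Of all its genes it called 8.32% and 7.11%, 8.53% and 6.74%, and 8.55% and 7.99%. Medians of the relatives were −0.32, 0.26 and 0.32. Sesn2, the relative of Sesn1, was at 160.1, 167 and 168 CPM in shCtr, 70.3, 57.8 and 55.1 CPM in shOSGEP#1 and 206 and 215 CPM in shOSGEP#2. It fell in shOSGEP#1 (−1.45, SE 0.14, edgeR adjusted p = 0.000171), where Sesn1 also lay below shCtr, and had 0.26 (edgeR adjusted p = 0.245) in shOSGEP#2. Trp53inp2 fell in shOSGEP#1 (−0.62, edgeR adjusted p = 0.00987), a call lost on leaving out any 1 of the 8 libraries (−0.67 to −0.54). It was also lost with library totals (−0.60) and with the replicate number as a block (−0.62). Phlda1 fell in shOSGEP#2 (−1.30, edgeR adjusted p = 0.00149), and Sesn3, among the most abundant, had 0.37 and 0.36.

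The melanocyte lineage markers differed between the groups as well. Of 7 tested, 0 rose and 1 fell in shOSGEP#1, 0 rose and 5 fell in shOSGEP#2, and 0 were higher and 4 lower in shOSGEP#2 than in shOSGEP#1 by edgeR's test, where 4.67%, 3.89% and 4.56% of all genes tested fell. DESeq2 called 0 up and 1, 7 and 6 down, where it called 7.11%, 6.74% and 7.99% of all its genes down. An unadjusted p under 0.05 was found for 2, 7 and 7, against 34.9%, 35.6% and 37.1% of all genes tested. Medians of the 7 were −0.09, −1.42 and −1.24. Those called by edgeR in shOSGEP#2 were Tyr (−3.83), Pmel (−2.06), Dct (−2.00), Mlana (−1.41, a call lost without shOSGEP#2 replicate 3 at −1.40) and Sox10 (−0.99, lost without replicate 1 at −0.88, and named after its values were seen), while Tyr alone fell in shOSGEP#1 (−2.59). Of the 12 markers of other cell types 4 were tested, and by edgeR 0 were called against shCtr (0 and 1 at an unadjusted p under 0.05, 0 and 1 by DESeq2), while Col1a1 was higher in shOSGEP#2 than in shOSGEP#1 (2.66, edgeR adjusted p = 0.00750). That call was lost without shCtr replicate 1 or 2 (2.67 and 2.66), shOSGEP#1 replicate 1, 2 or 3 (2.74, 2.43 and 2.83) or shOSGEP#2 replicate 3 (1.73). It was also lost with only those groups in the fit (2.67) and with the replicate number as a block (2.61). Pecam1, an endothelial gene and the next most abundant, had 0.82 and 0.37 against shCtr (edgeR adjusted p = 0.665 and 0.865). The part of these markers in the lower Bax and Zmat3 of shOSGEP#2 was not tested.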

How the data were processed

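RNA bound to FLAG-tagged RIG-I was sequenced by the authors, who used bcl2fastq, Trim Galore for trimming, STAR for alignment to GRCm39 and Salmon for quantification. The deposited values are whole-number counts per gene for 9 libraries, without normalization. The library kit keeps the strand, but whether the counting used it was not given in the sources used here, so counts of overlapping genes may not be separate.

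CPM used all counts of a library. The quasi-likelihood test of edgeR 4.0.16 was run in R 4.3.3, following TMM and filterByExpr, with 3 group coefficients on 8 libraries, without shOSGEP#2 replicate 2. Calls are Benjamini-Hochberg adjusted p-values under 0.01, adjusted over all genes tested. SE was derived from F (log2 fold change over its root). Intervals are 95% Wilson intervals, and floors are 3 counts.

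Alternatives were all 9 libraries, DESeq2 1.42.0 with 8 or 9 libraries, RLE factors, library totals, no filter, 10 counts or more in each library, a threshold of 0.05, only the groups compared, the replicate number as a block and leaving out each of the 8 libraries. The tests were tested on simulated data first.

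Symbols, exon lengths and codons came from GENCODE annotation of GRCm38, matched by identifier: 22237 of 22396 had a symbol, 22285 an exon length and 21410 a coding sequence. Promoters came from RefSeq. Shares and plots used Python 3.11.15 with matplotlib 3.10.9, scipy 1.17.1, pandas 2.3.3 and numpy 2.4.6.

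The genes named were the 10 members, Osgep, the called genes of each other list against shCtr (the 4 with the largest fold change where more were called) and its 2 most abundant by mean CPM over the 8 libraries, and the 5 nearest to Cdkn1a (prior count 2). The lists were other p53-activated genes, p53 and its regulators, cell cycle genes repressed through p21, the BCL2 family, relatives of the members, and markers of melanocytes and of other cell types. Other genes are named where they were at 0 in every library, where a call changed with the setting, or after their values were seen. Pmaip1, Sesn2 and Mdm4 are each in more than 1 list. Members and lists were chosen with earlier results of these data known.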

Additional observations from a re-analysis of the deposited data

Results flagged for a closer look

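In a test of the difference between the shRNAs, some genes of the lists described above differed at an adjusted p under 0.01 (edgeR, 8 libraries). Apart from those named by rule, they were chosen after their values were seen. Of the p53 target genes followed, Bax differed, with a log2 fold change of −0.88 in shOSGEP#2 against shOSGEP#1. Among the other genes activated by p53, higher in shOSGEP#2 were Gadd45a (2.63), Sesn2 (1.71), Ddit4 (1.50), Ak1 (1.20), Rrm2b (1.10), Btg2 (1.06) and Gdf15 (0.97), and lower were Ppm1d (−1.31), Ephx1 (−1.16) and Apaf1 (−1.14). Of the regulators of p53, Mdm4 was higher (0.89). In the BCL2 family Bmf was higher (1.70) and Bcl2l1 lower (−0.90). Among relatives of the members, Trp53inp2 was higher (1.03) and Phlda1 lower (−0.98). Of the melanocyte markers, Dct (−2.38), Pmel (−1.97), Mlana (−1.46) and Sox10 (−1.04) were lower. Of the markers of other cell types, Col1a1 was higher (2.66).

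Leaving out 1 library ended some of these calls. Bax (−0.73) and Mdm4 (0.88) lost theirs without shOSGEP#2 replicate 3, and Bcl2l1 without either shOSGEP#2 library (−0.87 and −0.92). Btg2 lost it without either shOSGEP#2 library (1.10 and 1.02) or shOSGEP#1 replicate 1 (0.94) or 2 (1.06), and Ppm1d without either shOSGEP#2 library (−1.42 and −1.20) or shOSGEP#1 replicate 1 (−1.31). Gdf15 lost it without shCtr replicate 1 (0.99) or 2 (0.98), shOSGEP#1 replicate 1 (0.88) or 3 (0.92) or shOSGEP#2 replicate 3 (0.72). Phlda1 lost it without shCtr replicate 1 (−0.97) or 2 (−0.98), any shOSGEP#1 library (−1.04 to −0.88) or shOSGEP#2 replicate 1 (−0.73). Col1a1 lost it without the same shCtr and shOSGEP#1 libraries (2.43 to 2.83) or shOSGEP#2 replicate 3 (1.73). Ephx1 kept its call on leaving out shOSGEP#1 replicate 1 and lost it without each other library (−1.40 to −0.91). With only the groups compared in the fit, Bax, Btg2, Gdf15, Ppm1d, Ephx1, Bcl2l1, Bmf, Phlda1 and Col1a1 were not called, and with library totals Phlda1 was not (−0.90). With the replicate number as a block, Ephx1 and Col1a1 were not called (−1.18 and 2.61). In the edgeR fit of all 9 libraries none was called, and Gadd45a and Rrm2b were at 2.09 and 0.55.

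In shOSGEP#2 replicate 2, which the tests leave out, 15 genes of the lists had a 95% Wilson interval wholly above every shCtr library, as did 2184 (17.1%) of the 12744 genes tested. Of the 10 p53 target genes followed, 2 were among them, Cdkn1a at 1898 CPM and Mdm2 at 492 CPM. The others were Gdf15 (236 CPM), Plk2 (276), Ddit4 (540), Ak1 (392), Atm (199), Ep300 (627), Trp53bp1 (130), Bcl2 (239), Bcl2l1 (534), Mcl1 (858), Phlda1 (441), Sox10 (1090) and Col1a1 (68.5). Phlda3, at 364 CPM, also lay above the shCtr libraries, but its interval of 318 to 417 CPM reached below the highest of them (353 CPM). Other members had an interval wholly below every shCtr library. They were Ccng1 (upper bound 370 CPM), Zmat3 (132 CPM) and, without a count, Trp53inp1, Bbc3 and Sesn1 (6.75 CPM). The share of all genes tested that lay below is not given here. The lists held 10, 28, 13, 15, 9, 9, 7 and 4 tested genes, some in more than 1 list.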

How the results depend on the processing

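Of the fold changes of the p53 target genes under the alternatives, 470 kept their direction and their side of the threshold, 13 lost a call, 8 gained one and 16 changed sign. Those that changed sign were small or imprecise, and their cause was not tested. Leaving out 1 library gave most of them. In shOSGEP#1, Zmat3 ran from −0.0044 (without shCtr replicate 1) to 0.25 and Cdkn1a from −0.11 (without shOSGEP#1 replicate 3) to 0.27. Phlda3 ran from −0.28 and Eda2r from −0.92 to 0.076 and 0.33, these last 2 values without shCtr replicate 3. In shOSGEP#2, Sesn1 ran from −0.011 and Mdm2 from −0.024 (both without shOSGEP#2 replicate 3) to 0.30 and 0.62, and Phlda3 from −0.31 to 0.15 (without shCtr replicate 3 or shOSGEP#2 replicate 1). Between the shRNAs, Mdm2 ran from −0.26 (without shOSGEP#2 replicate 3) to 0.38, and was −0.00038 without shOSGEP#1 replicate 2. Phlda3 ran there from −0.17 without shOSGEP#2 replicate 3 to 0.28 without replicate 1. Eda2r ran from −8.44 without shOSGEP#2 replicate 1 to 0.59 without replicate 3. All 9 libraries turned Sesn1 in shOSGEP#2 (−0.34 in edgeR, −0.38 in DESeq2) and Phlda3 between the shRNAs (−0.013 in DESeq2), and library totals turned Phlda3 in shOSGEP#2 (0.041). Osgep, which is not among the 16, ran from −4.75 to 0.32 (without shOSGEP#2 replicate 1) between the shRNAs.

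With 8 libraries 1232, 1217 and 1375 genes were called in shOSGEP#1, shOSGEP#2 and between the shRNAs. All 9 libraries gave 0, 0 and 0 in edgeR and 122, 349 and 413 in DESeq2, where the common dispersion was 0.420 in edgeR against 0.0692 with 8. DESeq2 with 8 libraries called 2420, 2395 and 2595, an adjusted p under 0.05 2797, 2674 and 2952, and a fit of only the groups compared 737 between the shRNAs. Leaving out 1 library gave 318 to 1458, 518 to 1471 and 743 to 1504.

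Of the members, 1, 1 and 1 were called. This became 0, 0 and 0 with all 9 libraries in edgeR, 0, 0 and 1 with all 9 in DESeq2, 2, 2 and 2 in DESeq2, and 2, 3 and 3 at an adjusted p under 0.05. It was 2 in shOSGEP#1 and 2 between the shRNAs with no filter, 2 between them with at least 10 counts and 0 with only the groups compared. Leaving out 1 library gave 0 to 1, 0 to 1 and 0 to 2.

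With the replicate number as a block 1380, 1238 and 1393 genes were called, and 2 members in shOSGEP#1, as Ccng1 passed (−0.95). It changed no other call of a member. Of the calls of the other lists, 5 were not made with the block: Plk3 (−1.48) and Trp53inp2 (−0.62) in shOSGEP#1, Cd82 (1.16) in shOSGEP#2, and Ephx1 (−1.18) and Col1a1 (2.61) between the shRNAs. Deviations of libraries with the same number correlated at −0.00337 to 0.180, and not every library correlated best with its own number. With so few libraries per group, these correlations cannot decide whether the numbers pair the libraries. The common dispersion in edgeR was 0.0586 with the block and 0.0692 without it.

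The 46 calls of the other lists were all lost in edgeR with all 9 libraries and 33 in DESeq2 with all 9. Of them 23 were kept under every other alternative, and none changed sign. Library totals ended 3, and 9 were lost with only the groups compared. For the cell cycle genes repressed through p21 the median of the cell cycle genes repressed through p21, with alternatives chosen after seeing the data, ran from −0.89 to −0.25, −0.61 to −0.30 and −0.048 to 0.38 on leaving out 1 library.

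With 2 libraries in shOSGEP#2, leaving out 1 leaves a single library, assumed to vary like the other groups. Depth limited genes under 5.27 CPM in shOSGEP#2 replicate 2, but missing counts were not confined to them. Trp53inp1 and Sesn2, at means of 297 and 211 CPM in the other shOSGEP#2 libraries, also had no count there.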
